A study of Mus musculus with 2 samples.

Results

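The genes described here were 38 DNA replication and mitosis genes, out of 16098 genes in a single-cell RNA-seq count table of regulatory T (Treg) cells. They were taken from a fixed list of names, not from their values, and all 38 were found in the table, 1 of them (Pclaf) under an older symbol. Genes of S phase (Mcm2 to Mcm7, Pcna, Rrm1 and Rrm2, 9 genes, the S-phase set) were kept apart from genes of mitosis (Ccnb1, Ccnb2, Aurka, Aurkb, Birc5 and Cdc20, 6 genes, the mitosis set). Counting the other members by role gave 17 replication genes and 18 mitosis genes, and the remaining 3 (Stmn1, Tubb5 and H2afz) are also widely expressed outside division.

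The study asked how Treg cells that regained Foxp3 as a single cohort early in life persist. There were 2 libraries. The control library held GFP+ Treg cells pooled from 5 Foxp3DTR-GFP/y Cd4creERT2 mice, whose Foxp3 locus is intact and carries a diphtheria toxin receptor and GFP. The rescued library held Thy1.1- GFP+ Treg cells pooled from 4 Foxp3LSL/y Cd4creERT2 mice, whose Foxp3 stays off behind a floxed Thy1.1 and stop cassette that Cre can excise. All mice were C57BL/6 males with a Cre-dependent tdTomato reporter at R26. They received 4-hydroxytamoxifen, which activates CreERT2, once when 14 days old and were sampled at 7 months, which the labels give as age and the methods as time after the dose. Cre was driven by Cd4 and so was not limited to Treg cells, and in both strains it also switched on tdTomato. The paper describes the rescued cells as a lasting single cohort, while control Treg cells were mostly replaced by newer ones, most likely from the thymus. The groups therefore differ in Foxp3 allele, in their early disease, in turnover of the Treg pool and in library, and these cannot be told apart. For cell cycle progression genes, the paper reported comparable expression in rescued and tdTomato-positive control cells, whereas all control cells are used below. Cells were sorted from spleen and lymph node. With 1 library per group there was no replicate and no test, and every interval below is a 95% interval for counting error only.

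A dividing T cell copies its DNA in S phase and parts the copies in mitosis. MCM proteins form the replicative helicase, PCNA is the clamp that holds the polymerase on DNA, and ribonucleotide reductase (RRM1 and RRM2) makes deoxynucleotides. These genes are switched on before and during S phase by E2F factors. Mitotic cyclins, Aurora kinases, survivin (Birc5) and CDC20 run chromosome alignment and separation, and their genes peak later, many through a cell cycle homology region (CHR) in the promoter bound by the DREAM and MuvB complexes. Lymphoid Treg cells are known to divide more than other CD4 T cells, in particular when activated.

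The members were classed by role, not by promoter. The letters of both elements were searched in RefSeq promoters (GRCm38.p6, 250 bases before to 50 bases after a start, both strands), which 30 of the 38 members had. Mcm4, Gins2, Ccne2, Aurkb, Ccna2, Tpx2, Stmn1 and H2afz had none. The E2F letters (TTTCCCGC, TTTGGCGC, TTTCGCGC or TTTGCCGC) stood in 4 of 8 promoters of the S-phase set and 0 of 5 of the mitosis set, and in 2.6% of all 27025 genes. By role the counts were 6 of 14 replication genes and 1 of 15 mitosis genes (Cdk1). The CHR letters (TTTGAA) showed the opposite split, with 2 of 14 replication genes and 11 of 15 mitosis genes, against 20.2% of all genes. CCAAT, an element that often lies near a CHR, stood in 10 of 14 and 13 of 15 promoters and in 41.1% of all genes. A match describes these letters in this window and does not show a bound site. The following 30-base stretches show both kinds, read on the strand of each gene, with the matched letters in capitals. In the first group, E2F letters occur upstream of MCM helicase genes.
Mcm5 promoter: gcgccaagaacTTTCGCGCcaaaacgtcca
Mcm6 promoter: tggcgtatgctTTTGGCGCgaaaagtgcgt
Mcm7 promoter: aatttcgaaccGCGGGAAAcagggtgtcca
In the second group, CHR letters occur near the starts of mitosis genes, of which Ccnb2, Mki67 and Ube2c were higher in rescued cells below and Cdc20 was not. The promoter of Birc5, the member with the largest ratio below, held neither the CHR nor the E2F letters.
Ccnb2 start: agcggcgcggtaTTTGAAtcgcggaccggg
Cdc20 promoter: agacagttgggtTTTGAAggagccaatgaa
Mki67 promoter: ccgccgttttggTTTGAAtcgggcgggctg
Ube2c promoter: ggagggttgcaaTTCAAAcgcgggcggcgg

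With the first transcribed base as position 0, the capitals begin at position -153 for Mcm5 (chr8:75109345-75109374, plus strand), -110 for Mcm6 (chr1:128359797-128359826, minus strand) and -165 for Mcm7 (chr5:138172030-138172059, minus strand, the E2F letters read as their reverse complement). For the CHR letters they begin at position 4, just past the RefSeq start, for Ccnb2 (chr9:70421533-70421562, minus strand). They begin at position -18 for Cdc20 (chr4:118437344-118437373, minus strand), -98 for Mki67 (chr7:135716460-135716489, minus strand) and -29 for Ube2c (chr2:164769888-164769917, plus strand, as the reverse complement). The promoter of Ccnb2 holds CHR letters a second time, from position -167. The promoter of Mcm5 also holds the letters in the other direction from position -149, overlapping the run shown.

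The control library had 3634 cells and 15446201 UMIs (unique molecular identifiers, each counting 1 captured transcript), with a median of 3739.5 UMIs per cell. The rescued library had 3390 cells and 15537656 UMIs, with a median of 3846.5. Members made up 37105 UMIs in control (0.240%) and 40220 in rescued cells (0.259%). The libraries shared 3 cell barcodes. T cell markers were present, with Cd3d in 98.3% (control) and 98.6% (rescued) of cells and Trac in 91.9% and 95.7%. Foxp3, the defining Treg gene, had a UMI in 26.3% (control) and 71.7% (rescued) of cells, and the targeted Foxp3 alleles differ between the libraries. Levels are given as CPM, the UMIs of a gene scaled to a library total of 1000000, and a difference as the log2 ratio of rescued to control CPM.

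The S-phase set stood at nearly the same summed level in both libraries, and the mitosis set was higher in rescued cells. The S-phase set had 5271 UMIs (341 CPM) in control and 5335 UMIs (343 CPM) in rescued cells, a log2 ratio of 0.0089 (-0.046 to 0.064). The mitosis set had 204 UMIs (13.2 CPM) in control and 368 UMIs (23.7 CPM) in rescued cells, a log2 ratio of 0.84 (0.59 to 1.10). As counted, the intervals of the 2 ratios do not meet, and both leave out the variation between mice and between cells. With every cell thinned to 2000 UMIs, so that deep cells weigh no more than others, the log2 ratios were 0.12 (0.029 to 0.201) for the S-phase set and 0.56 (0.09 to 1.03) for the mitosis set. At 1000 UMIs both intervals held 0, with 0.12 (-0.0045 to 0.236) and 0.56 (-0.076 to 1.21). At either depth the intervals of the 2 sets overlapped. By role, the 17 replication genes gave 6027 and 6190 UMIs (log2 ratio 0.030, -0.021 to 0.081). The 18 mitosis genes gave 1819 and 2501 UMIs (log2 ratio 0.45, 0.36 to 0.54). Of the 18, 1021 control and 1320 rescued UMIs came from Cenpa alone. Of the 18 single ratios, 11 lay above 0 and 7 below, with 6 intervals above 0 and 0 below.

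Of the 38 members, 24 had at least 100 UMIs over both libraries and 14 had fewer. Among the 24, 5 were at least 1.5-fold higher in rescued cells (Birc5, Ccnb2, Mki67, Ube2c and Tk1), against 5.15% of all 9779 genes with as many UMIs. Only Ccne1 was at least 1.5-fold lower, against 2.7% of all genes. The median log2 ratio was 0.12 over the 24 members and 0.024 over all genes. With a minimum of 20 UMIs, 7 of 36 members were higher (8.12% of all genes) and 2 were lower (5.21% of all genes).

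**Figure D1:**
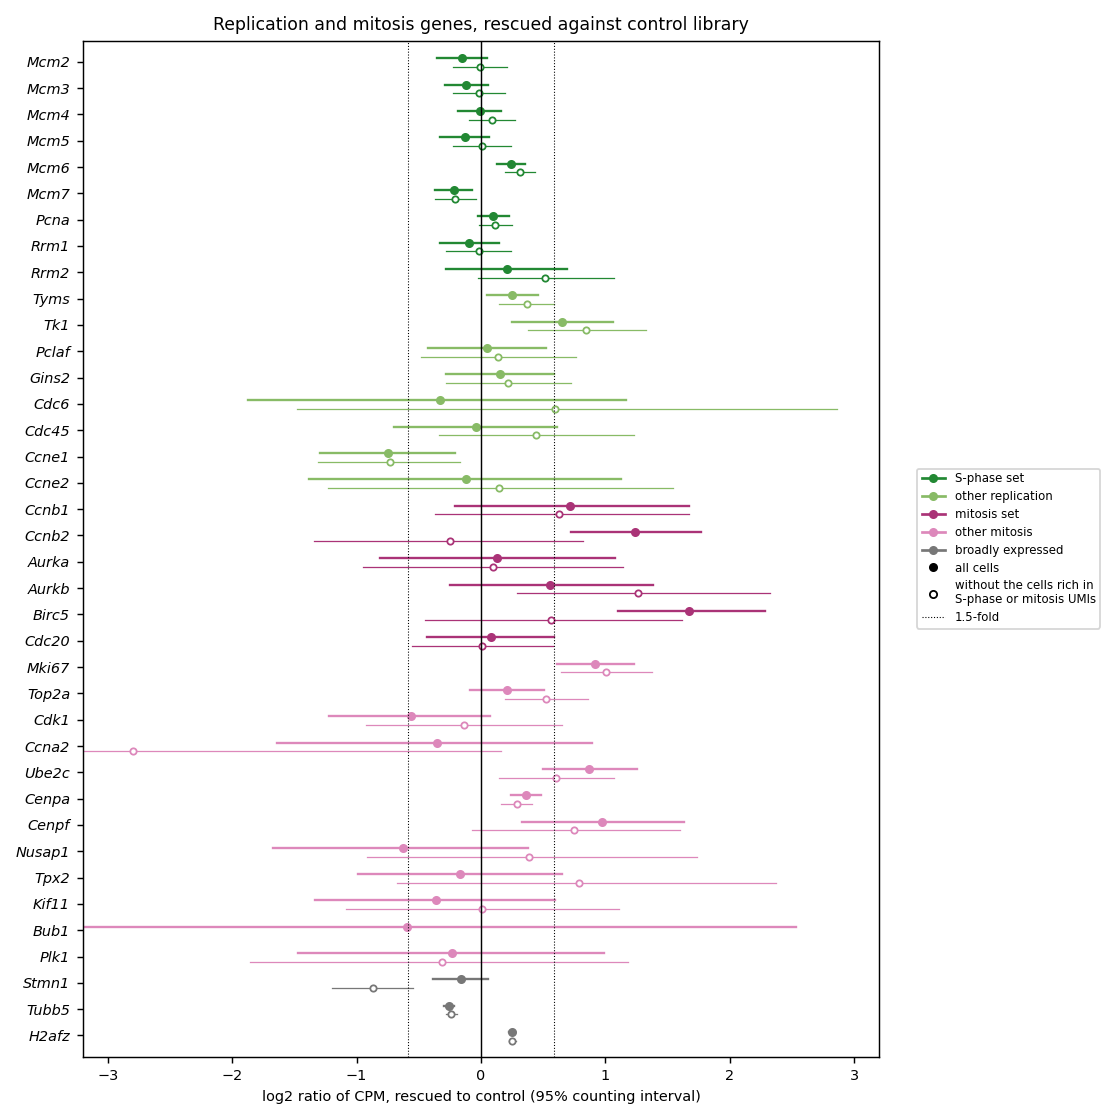
Log2 ratio of rescued to control CPM (x axis) of the 38 members (y axis), coloured by role. Filled points are all cells and open points leave out the 92 cells with 3 or more mitosis-set or 10 or more S-phase-set UMIs; lines are 95% counting intervals, cut at the axis for Bub1 and Ccna2, and Bub1 has no open point because it had no UMI outside those cells. The S-phase set lies near 0, while Birc5 and Ccnb2 reach 1.68 and 1.24 in all cells and 0.56 and -0.25 without those cells.

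Within the helicase, the 6 subunits did not move together. Mcm6 was higher in rescued cells, at 1151 UMIs in control and 1370 in rescued cells (log2 ratio 0.24, 0.13 to 0.36), and had a UMI in 22.6% and 27.3% of cells. Mcm7 was lower, at 786 and 679 UMIs (log2 ratio -0.22, -0.37 to -0.07). For the other subunits the intervals held 0. Mcm2 had 437 and 396 UMIs, Mcm3 560 and 519, Mcm4 540 and 539 and Mcm5 436 and 400, with log2 ratios from -0.15 (Mcm2) to -0.01 (Mcm4). Mcm6 kept its direction when every cell was thinned to 1000 UMIs (0.46), whereas Mcm7 then stood at 0.015.

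Pcna had 994 UMIs in control and 1071 in rescued cells (log2 ratio 0.10, -0.03 to 0.23). The ribonucleotide reductase subunits also did not differ beyond counting error. The large subunit Rrm1 had 298 and 281 UMIs and the small subunit Rrm2, which is restricted to S phase, had 69 and 80, of which 13 in control came from a single cell.

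Of the other replication genes, those for thymidine nucleotides were higher in rescued cells. Thymidylate synthase, Tyms, had 363 UMIs in control and 435 in rescued cells (log2 ratio 0.25, 0.05 to 0.46). Thymidine kinase, Tk1, which salvages thymidine, had 86 and 136 UMIs (log2 ratio 0.65, 0.25 to 1.06). The ratio of Tk1 varied with the processing, from 0.26 at 1000 UMIs per cell and 0.48 without cells over 10% mitochondrial UMIs, both under 1.5-fold, to 1.65 at 2000 UMIs. Cyclin E1, Ccne1, which acts with CDK2 at entry into S phase, was lower, at 80 and 48 UMIs (log2 ratio -0.75, -1.29 to -0.21), but stood at 0.28 after thinning to 1000 UMIs. Ccne2 had 13 and 12 UMIs. Pclaf, a PCNA-binding protein, had 75 and 78, and Gins2, a subunit of the helicase complex, 87 and 97. The loading and activating factors Cdc6 (10 and 8 UMIs) and Cdc45 (42 and 41 UMIs) were too sparse to compare.

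In the mitosis set all 6 ratios lay above 0, but only those of Birc5 and Ccnb2 had intervals above 0. Birc5 (ENSMUSG00000017716, chr11:117849251-117855743) encodes survivin, a part of the chromosomal passenger complex. It had 33 UMIs in 18 control cells and 106 UMIs in 41 rescued cells (log2 ratio 1.68, 1.10 to 2.29). Ccnb2 (ENSMUSG00000032218, chr9:70407692-70421547), a cyclin B, had 46 UMIs in 18 control cells and 109 UMIs in 34 rescued cells (log2 ratio 1.24, 0.73 to 1.77). Both genes had more positive cells in the rescued library, and also more UMIs per positive cell. Ccnb1 had 17 and 28 UMIs and the passenger kinase Aurkb 23 and 34. Aurka, the spindle pole kinase, had 20 and 22 UMIs, and Cdc20, which activates the anaphase-promoting complex (APC/C), 65 and 69 (log2 ratio 0.08, -0.43 to 0.59).

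Among the other mitosis genes, Mki67, which coats mitotic chromosomes and is the usual marker of dividing cells, had 133 UMIs in 79 control cells and 253 UMIs in 182 rescued cells (log2 ratio 0.92, 0.61 to 1.23). Ube2c, the APC/C ubiquitin-conjugating enzyme, had 93 and 171 UMIs (log2 ratio 0.87, 0.50 to 1.25). Cenpf, a kinetochore protein, had 32 and 63 (log2 ratio 0.97, 0.33 to 1.63). Cenpa, the centromeric histone, had 1021 and 1320 UMIs (log2 ratio 0.36, 0.24 to 0.48) and had a UMI in 22.2% and 27.6% of cells, far more than any other mitosis member.

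Top2a, which untangles replicated DNA, did not differ beyond counting error at 177 and 206 UMIs (log2 ratio 0.21, -0.09 to 0.51). Cdk1, the mitotic kinase that cyclin B activates, had 53 and 36 UMIs (log2 ratio -0.57, -1.22 to 0.07). The spindle genes Nusap1 (23 and 15 UMIs), Tpx2 (29 and 26) and Kif11 (23 and 18), the mitotic kinase Plk1 (14 and 12) and cyclin A, Ccna2 (14 and 11), all had intervals that held 0. A single control cell, described below, held 19 of the 29 control UMIs of Tpx2 and 11 of the 23 of Nusap1. Without it the log2 ratio was 1.37 (0.27 to 2.58) for Tpx2 and 0.44 (0.13 to 0.75) for Top2a. Those of Nusap1 (0.31), Kif11 (0.16), Plk1 (0.25) and Ccna2 (0.45) turned positive, with intervals that held 0. Taking UMIs from control alone raises such ratios by construction, so no difference is read from them. The rescued cell with the most mitosis-set UMIs was kept, and it held 6 of the 26 rescued UMIs of Tpx2 and 2 of the 206 of Top2a. The checkpoint kinase Bub1 had 3 UMIs in control and 2 in rescued cells.

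The 3 widely expressed members went different ways. H2afz, a histone variant, was higher in rescued cells at 19478 and 23276 UMIs (log2 ratio 0.25, 0.22 to 0.28). Tubb5, a tubulin, was lower at 9420 and 7929 UMIs (log2 ratio -0.26, -0.30 to -0.21). Stmn1, which destabilises microtubules, had 361 and 324 UMIs (log2 ratio -0.16, -0.39 to 0.06), and 0.08 (-0.15 to 0.31) without that control cell, which held 57.

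The shares of cells with 3 or more UMIs of a set were then compared. For the S-phase set these were 516 of the 3634 control cells (14.2%, 13.1 to 15.4%) against 604 of the 3390 in the rescued library (17.8%, 16.5 to 19.1%), a ratio of 1.25 (1.11 to 1.41). As counted, the ratio was above 1 at each limit tried, from 1.06 at 1 UMI and 1.10 at 2 to 1.495 (1.17 to 1.91) at 5 and 1.014 (0.620 to 1.66) at 10. With every cell thinned to 2000 UMIs the shares were 2.72% and 3.52% (ratio 1.29, 0.980 to 1.71), and at 1000 UMIs 0.743% and 0.708% (ratio 0.953, 0.526 to 1.72). At the limit of 10 UMIs, 37 control cells (1.02%) and 35 rescued cells (1.03%) remained as counted. Those cells held 17.5% of all S-phase-set UMIs in control and 12.7% in rescued cells. The order turned at 1000 UMIs on 27 control and 24 rescued cells, and that interval also held 1.25. Counting all 17 replication genes, the ratio at 3 or more UMIs was 1.24 (1.11 to 1.38) as counted. It was 1.27 (1.01 to 1.61) at 2000 UMIs and 1.17 (0.709 to 1.94) at 1000 UMIs. At that limit the wider list thus kept its direction at each depth, with an interval that held 1 at 1000 UMIs. Because the order of the S-phase set turned, no order between the libraries is read from its shares.

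For the mitosis set only 4 control cells (0.110%, 0.030 to 0.282%) reached 3 UMIs, against 20 in the rescued library (0.590%, 0.361 to 0.910%), a ratio of 5.36 (1.80 to 21.6). The limits of 2 and 5 UMIs gave 14 against 34 cells and 3 against 16 cells. Such cells were deep, with a median of 13696.5 UMIs in control and 12504 in rescued cells, against 3725 and 3790 for cells without a mitosis-set UMI. Cells of at least 5000 UMIs were 734 in control (20.2%) and 925 in rescued cells (27.3%), and among these the shares were 0.545% (0.149 to 1.39%) and 2.16% (1.33 to 3.32%). After thinning to 2000 UMIs 1 control and 3 rescued cells remained, and at 1000 UMIs 0 cells in either library, which allows shares of up to 0.0826% and 0.0885% by the limit of 3 counts and up to 0.101% and 0.109% by the exact binomial interval. At equal low depth the difference in shares was thus not detectable. Counting all 18 mitosis genes, 3 or more UMIs were found in 109 control (3.00%) and 175 rescued cells (5.16%), a ratio of 1.72 (1.35 to 2.21). The shares were 0.420% and 0.953% at 2000 UMIs (ratio 2.27, 1.19 to 4.51) and 0.165% and 0.206% at 1000 UMIs (ratio 1.25, 0.360 to 4.50). Nearly all cells in the sort were T cells, so no cell type that should lack these transcripts was at hand to measure free RNA. Among cells without any other mitosis-set UMI, Birc5 was seen in 0.427% (control) and 0.588% (rescued).

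**Figure D2:**
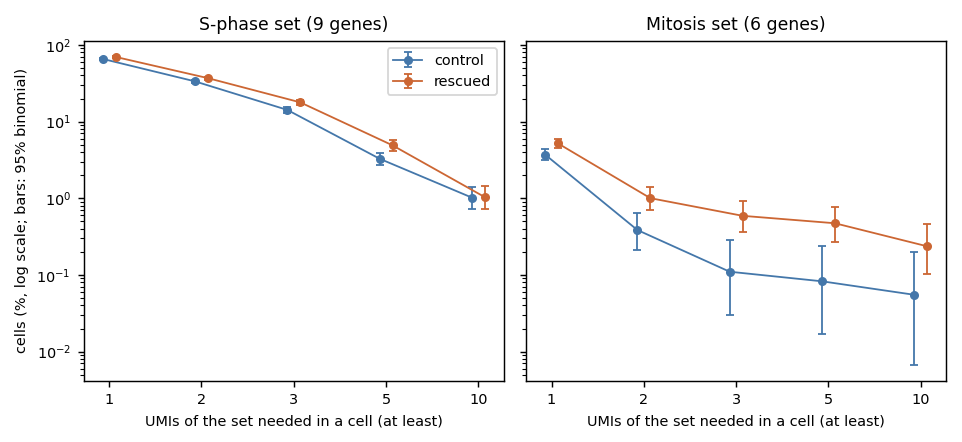
Share of cells (y axis, percent, log scale) with at least a given number of UMIs (x axis) of the S-phase set (left) and the mitosis set (right) in the control and rescued libraries, with 95% exact binomial intervals. The S-phase shares meet at 10 UMIs (1.02% and 1.03%), while the mitosis shares stand at 0.110% and 0.590% at 3 UMIs.

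A small number of cells held much of the difference in the 6-gene mitosis set. The 4 control cells held 30.9% of the mitosis-set UMIs of their library and the 20 rescued cells 53.8%. Without these 24 cells the set had 141 UMIs in control and 170 in rescued cells (log2 ratio 0.28, -0.05 to 0.61). These UMIs also defined the cells left out, so part of that fall is built in. Within control, a single cell with 44 of the 204 UMIs stood far above the next, with 11. Leaving that control cell out raised the log2 ratio of the set to 1.19 (0.92 to 1.47), and leaving out the highest cell of each library (44 and 28 UMIs) gave 1.08 (0.80 to 1.36). The ratio of Birc5 became 2.55 and that of Mki67 1.24 without the control cell, a rise that is built in. The highest rescued cell was kept in these ratios, and it held 11 of the 106 rescued UMIs of Birc5 and 12 of the 253 of Mki67. For all 18 mitosis genes together, the 24 cells held only 12.9% of the UMIs in control and 19.6% in rescued cells. Outside them 1585 and 2012 UMIs of the 18 genes remained. Which of the pooled mice each cell came from is not given in the sources used here.

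The cells rich in mitosis UMIs differed between libraries in their S-phase UMIs. In control, 3 of the 4 cells also had 10 or more S-phase-set UMIs (49, 17 and 17), and the fourth had 0. In rescued cells, 1 of the 20 had 10, and the range was 0 to 10 with a median of 4. Their S-phase level was 1482 CPM in control and 309 CPM in rescued cells, against 327 and 336 CPM in cells without a mitosis-set UMI. The mitosis-rich rescued cells thus carried the 9 S-phase-set genes, as a sum, at about the level of other cells. Outside the set, Pclaf and Tk1 were higher in them than in cells without a mitosis-set UMI. Their log2 ratios were 4.58 (3.76 to 5.35) and 2.38 (1.34 to 3.28), with a UMI in 10 and 8 of the 20 cells. Of the 14 replication genes with a ratio in rescued cells, the interval lay above 0 for these 2 and below 0 for 2. The control level of 1482 CPM comes from 4 cells, and no test was possible.

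Each member was next compared between cells with 3 or more mitosis-set UMIs and cells with 0, its own UMIs left out of the sum. Of the 17 mitosis genes with a ratio, the interval lay above 0 for 16 in control and 11 in rescued cells, with 10 in both. For 12 of the 16 in control, and for 6 of the 10 in both, only 1 of the control cells had a UMI, so the control values largely describe a single cell. Ccnb2 stood 7.93 (6.86 to 8.97) higher on the log2 scale in control and 8.41 (7.61 to 9.29) higher in rescued cells. With its own UMIs left out, that contrast rests on 2 control and 12 rescued cells. Birc5 had log2 ratios of 8.22 and 7.94, Ube2c of 7.03 and 5.89, and Cenpf of 7.10 and 5.84. Cenpa, which many cells expressed, had 2.72 and 2.36. Stmn1, listed apart, had 6.24 in control and 5.77 in rescued cells, and 19 of the 20 rescued cells had a UMI of it.

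The median log2 ratio of the mitosis genes was 6.84 in control and 3.70 in rescued cells, and Top2a and Cdk1 stood apart in rescued cells. In rescued cells Top2a had 4 UMIs in 3 of the 20 cells, a log2 ratio of 0.15 (-1.75 to 1.53) to cells without mitosis UMIs. Cdk1 had 2 UMIs in 2 of the 20 cells. Mki67 had 46 UMIs in 15 of the 20 cells, with a log2 ratio of 3.82 (3.31 to 4.29) near that median. In control all 27 Mki67 and all 26 Top2a UMIs of the 4 cells came from the single cell with 44 mitosis-set UMIs. That cell held UMIs of all 18 mitosis genes and 57 UMIs of Stmn1, and the rescued cell with the most mitosis UMIs held 16 of the 18. For the S-phase set the interval lay above 0 for 7 of 9 genes in control and 0 of 9 in rescued cells. It lay below 0 for Pcna (-1.26, -2.48 to -0.28) and Mcm4 (-1.66, -3.95 to -0.11) in rescued cells.

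**Figure D3:**
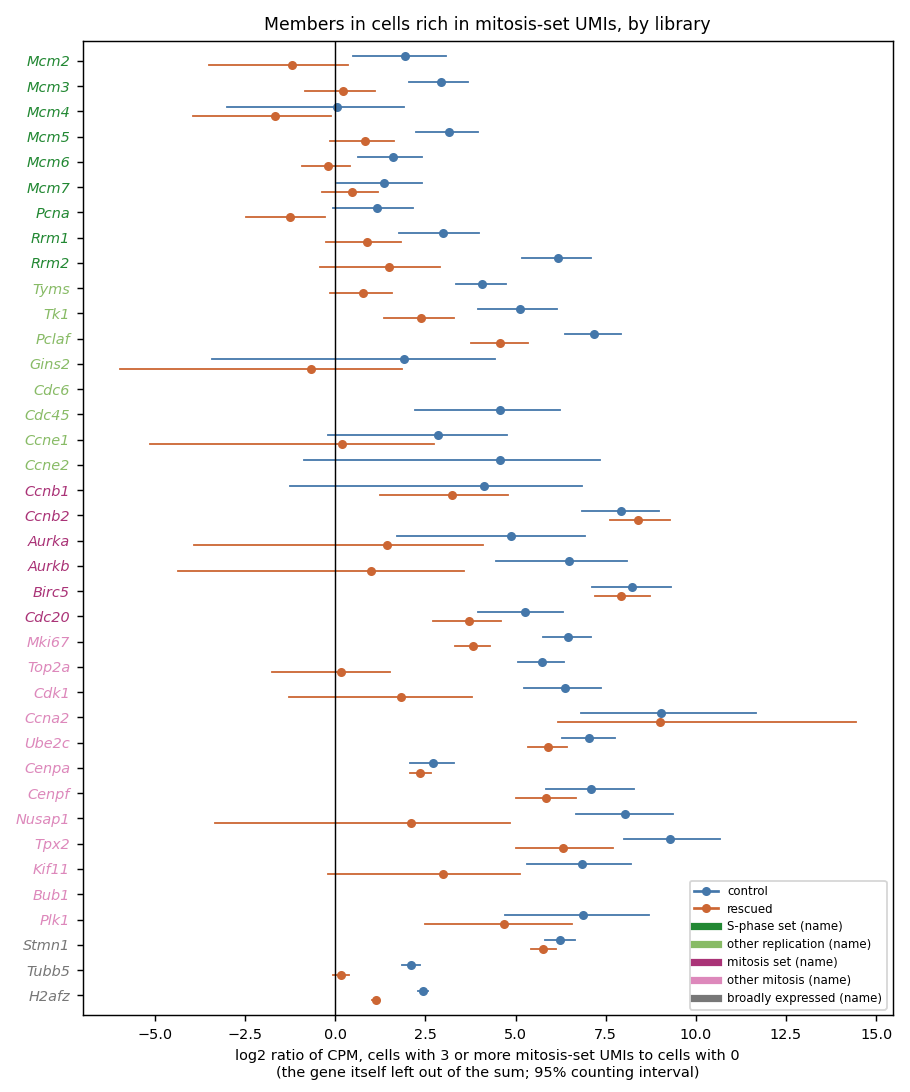
Log2 ratio of CPM (x axis) between cells with 3 or more and cells with 0 mitosis-set UMIs, for each member (y axis, names coloured by role) in the control and rescued libraries, with 95% counting intervals; the gene itself is left out of the sum. Members with a count of 0 in either class have no point (Cdc6 and Bub1 in both libraries, Cdc45 and Ccne2 in rescued cells). Ccnb2 and Birc5 lie near 8 in both libraries, and Top2a at 5.73 in control and 0.15 in rescued cells.

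These 24 cells were T cells by their markers. Cd3d, Cd3e and Trac each had a UMI in 24 of 24. Foxp3 had one in 1 of the 4 control and 19 of the 20 rescued cells, and tdTomato in 4 and 18. Of the B cell genes, 28 of 29 UMIs were Cd79b, which also had a UMI in 12.2% (control) and 16.6% (rescued) of all cells, and Ms4a1 was at 0. The erythroid genes were at 0, immature T cell genes at 2 UMIs, plasma cell genes at 5 and myeloid genes at 68. Those 68 were all Cst3, which also had a UMI in 47.8% (control) and 55.6% (rescued) of all cells, while Lyz2, Cd68 and S100a9 were at 0. Nkg7, a cytotoxic granule gene, had 24 of its 684 control UMIs in the 4 control cells, which held 0.363% of all control UMIs. The 20 rescued cells had 6 of its 402 rescued UMIs and held 1.79% of all rescued UMIs. Nkg7 thus stood above its library level in the 4 control cells. Doublet scores in the highest 3.5% of their library were found for 0 of the 4 and 2 of the 20. The part of these markers in the result was not tested.

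Of the 72 cells with 10 or more S-phase UMIs, 34 in each library had fewer than 3 mitosis-set UMIs. All 37 such control cells together held 66 of the 204 mitosis-set UMIs (32.4%), most of them in the 3 cells rich in both sets. The 35 rescued cells held 15 of 368 (4.08%), 9 of them in the 1 cell rich in both sets. Their mitosis-set level was 134 CPM in control and 34.4 CPM in rescued cells, both above the library levels of 13.2 and 23.7 CPM. With each gene left out of the sum, Mcm3 was 3.82 (3.47 to 4.17) higher on the log2 scale in control cells with 10 or more S-phase UMIs than in those with 0. In rescued cells it was 3.79 (3.38 to 4.20) higher. Mcm5 had 3.78 and 3.12, and Pcna 1.59 and 1.52. Rrm2 had 3.08 in control and 0.86 (-1.15 to 2.42) in rescued cells, with a UMI in 4 and 3 cells.

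Outside all 92 cells rich in either set (38 control and 54 rescued), some members still differed. Among the 24 members with at least 100 UMIs, 3 were then at least 1.5-fold higher in rescued cells (5.39% of all genes) and 2 lower (2.7% of all genes). Mki67 had 97 UMIs in control and 193 in rescued cells (log2 ratio 1.00, 0.64 to 1.37), in 2.03% and 4.80% of these cells. Tk1 had 60 and 107 UMIs (log2 ratio 0.84, 0.38 to 1.33) and Ube2c 67 and 101 (log2 ratio 0.60, 0.14 to 1.07). Top2a had 129 and 184 UMIs (log2 ratio 0.52, 0.19 to 0.86), where the full libraries did not differ. Stmn1 was lower in rescued cells, at 226 and 123 UMIs (log2 ratio -0.87, -1.20 to -0.54). The cells left out had held 37.4% of its control and 62.0% of its rescued UMIs. For Top2a they had held 27.1% and 10.7%. The change of both ratios from the full libraries is thus at least partly built in by the choice of cells. Ccne1 stood at -0.73. Ccnb2 had only 18 and 15 UMIs left, with 60.9% of its control and 86.2% of its rescued UMIs held by the 24 mitosis-rich cells, and its ratio was -0.25 (-1.35 to 0.82). The S-phase set had a log2 ratio of 0.086 (0.026 to 0.146) outside these cells. UMIs of this set also defined the cells left out, which held 17.5% of them in control and 14.2% in rescued cells. Its rise from the value in all cells is therefore built in, and no difference is read from it.

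Depth also bears on the share of Mki67-positive cells. It was 2.17% (1.72 to 2.70%) in control and 5.37% (4.63 to 6.18%) in rescued cells as counted. Thinned to 2000 UMIs the shares were 1.26% and 2.35%, and at 1000 UMIs 0.495% and 1.21%, so the order held at each depth.

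Rescued cells also expressed more activation genes, so the members were read along that axis. All cells were ranked by the share of their UMIs from 10 activation and tissue-homing genes the study had picked from these libraries (Cd44, Tnfrsf18, Icos, Ctla4, Ccr4, Cxcr3, Ccr6, Itgae, Maf and Ahr) and split into 3 groups of near-equal size. The list is not independent of the groups, since 8 of its 10 genes were at least 1.5-fold higher in rescued cells. The lowest group held 1903 control and 439 rescued cells, the middle 1145 and 1196, and the highest 586 and 1755.

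The Mki67-positive share was larger in more activated cells of both libraries. In control it was 0.736% in the lowest, 2.97% in the middle and 5.29% in the highest group. In rescued cells it was 1.82%, 4.60% and 6.78%. Rescued cells had the higher share in each of the 3 groups, and the intervals of the 2 libraries overlapped in each. Shares with 3 or more S-phase UMIs were 11.5%, 17.3% and 17.1% in control and 13.9%, 16.6% and 19.7% in rescued cells. Cells with 3 or more mitosis UMIs did not follow the ranking, with 2, 2 and 0 in control and 0, 13 and 7 in rescued cells. Weighted to the control makeup, the log2 ratio of the mitosis set was 0.65 and that of the S-phase set 0.12.

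**Figure D4:**
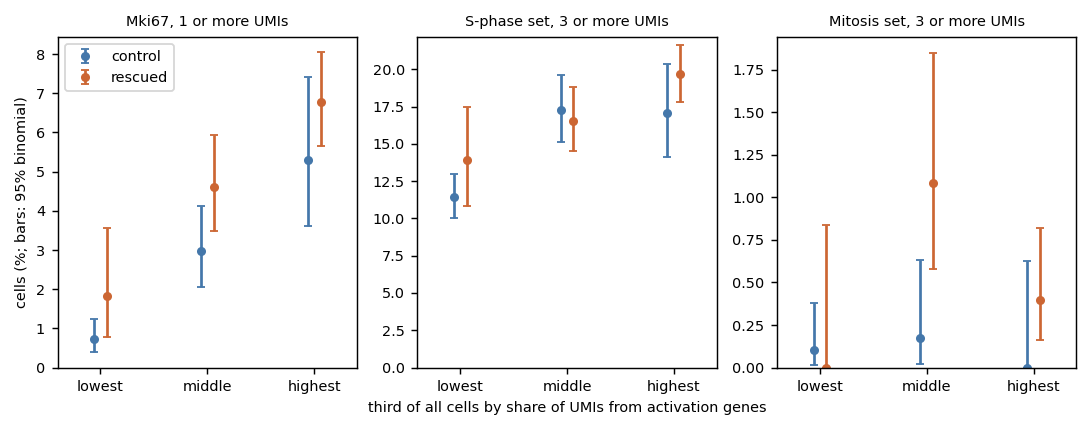
Share of cells (y axes, percent) with a UMI of Mki67 (left), 3 or more S-phase-set UMIs (middle) and 3 or more mitosis-set UMIs (right) in 3 groups of cells ranked by activation genes (x axis), in the control and rescued libraries, with 95% exact binomial intervals. Mki67 goes from 0.736% to 5.29% in control and from 1.82% to 6.78% in rescued cells.

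Cells were also split by the tdTomato transcript. A single UMI was taken as positive and no background share was measured, so these classes do not stand for cells marked or not marked by Cre. Cells with a tdTomato UMI numbered 2287 in control and 1894 in rescued cells. As counted, they had higher levels of both sets than cells without one in both libraries. The S-phase set had log2 ratios of 0.27 (0.18 to 0.36) in control and 0.13 (0.05 to 0.22) in rescued cells, and the mitosis set of 1.20 (0.67 to 1.77) and 1.34 (0.97 to 1.73). Positive cells were also deeper, with medians of 3930 against 3508 UMIs in control and 4097 against 3603 in rescued cells. At 2000 UMIs per cell the S-phase ratios were 0.20 (0.069 to 0.328) in control and 0.061 (-0.061 to 0.184) in rescued cells. The mitosis ratios were then 0.48 (-0.30 to 1.31) and 0.89 (0.23 to 1.58).

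Other genes of the cell cycle were read from lists of their own. Of 38 further replication genes with at least 100 UMIs (polymerases, origin and clamp-loading factors), 0 were at least 1.5-fold higher and 1 was lower in rescued cells, against 5.15% and 2.7% of all genes, with a median log2 ratio of -0.061. Pole2, a subunit of polymerase epsilon, was that gene, at 93 and 53 UMIs (log2 ratio -0.82). Of 26 further mitosis genes, 3 were higher and 1 lower, against the same shares, with a median of 0.11. All 59 genes of that list, at any count, summed to 2388 CPM in control and 2321 CPM in rescued cells. The most abundant genes weigh most in that sum. Racgap1, which acts in cytokinesis, had 124 UMIs in control and 277 in rescued cells (log2 ratio 1.15, 0.84 to 1.47), in 3.03% and 7.14% of cells. Prc1, named because it completes the count, also acts in cytokinesis and had 68 and 103 (log2 ratio 0.59, 0.13 to 1.05). Cdca3, an inducer of mitotic entry, had 35 and 65 UMIs (log2 ratio 0.88), and the kinetochore gene Ndc80 108 and 65 (log2 ratio -0.74).

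G1 regulators included larger counts and clearer differences. The D-type cyclin Ccnd3 was lower in rescued cells at 5896 and 3718 UMIs (log2 ratio -0.67, -0.73 to -0.61), and Ccnd2 had 11534 and 10668 (-0.12, -0.16 to -0.08). Their kinase partners split, with Cdk6 higher at 827 and 1203 UMIs (0.53, 0.40 to 0.66) and Cdk4 at 2069 and 2118 (0.03, -0.06 to 0.11). Cdk2 had 203 and 162 UMIs (-0.33, -0.64 to -0.03). Ccnd1 had 37 and 44 UMIs. Of the INK4 inhibitors of CDK4 and CDK6, Cdkn2c was higher at 249 and 450 UMIs (0.85, 0.62 to 1.07) and Cdkn2d lower at 1546 and 1060 (-0.55, -0.67 to -0.44). Cdkn2a had 10 and 25 UMIs and Cdkn2b 9 and 14. The CIP/KIP inhibitor Cdkn1b, or p27, had 3467 and 3595 UMIs (0.04, -0.02 to 0.11), Cdkn1a 26 and 29, and Cdkn1c 92 and 112. Cdkn3, a phosphatase of CDKs, had 11 and 25 UMIs. None of the 13 RB, E2F and DREAM genes or of the 4 antiproliferative Btg and Tob genes with at least 100 UMIs passed 1.5-fold, with medians of 0.12 and -0.05.

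Genes most like the mitosis set were sought by their log2 ratio between cells with 3 or more and 0 mitosis-set UMIs, taking the lower value of the 2 libraries. A minimum of UMIs was set within the cells with 3 or more, in each library. Genes thus entered through the class in which they were then ranked, and the ranking is a description only. Of the 889 genes that passed, with a median of -0.026 over genes selected in this way, the 10 highest were Cdca8 (5.25), Cks1b (3.62), Hmgb2 (3.12), 2700094K13Rik (2.41), Anxa2 (2.37), Hmgn2 (2.30), Lockd (2.09), Hmgn5 (2.09), Lgals1 (2.04) and Lmnb1 (1.99). The first 3 were in the mitosis list: Cdca8 is a passenger complex subunit, Cks1b binds cyclin-dependent kinases and Hmgb2 is a chromatin protein. Hmgb2 had a UMI in 24 of the 24 cells. Anxa2 and Lgals1 encode an annexin and a galectin, and Lmnb1 a nuclear lamin. The control values rest on 4 cells.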

How the data were processed

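Cells were sorted by FACS in 2 rounds, and libraries were made with version 3 of the 10x Chromium 3' chemistry. The authors processed reads with Cell Ranger 3.0 against GRCm38 extended by the tdTomato allele. The submitters' processing notes also name Seurat 3.1.5. The deposited table holds UMI counts of 16098 genes in 7024 cells (3634 control, 3390 rescued, as many as the methods state). Those methods state a limit of 5% mitochondrial transcripts, yet only 68 control and 97 rescued cells lay at or under it here. The table lists 0 ribosomal protein genes, which raises that share. All cells were kept, and the prefix of the cell name gave the library.

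UMIs were summed per library and divided by its total (CPM). Sums have exact Poisson intervals, shares exact Clopper-Pearson intervals and ratios conditional exact intervals, at 95% and for counting error only. No test was run, since each group had 1 library. A gene counts as called at 1.5-fold with at least 100 UMIs over both libraries. Cells were thinned to 1000 or 2000 UMIs by 1 random draw, which left out 0 cells and 65 control and 33 rescued cells. Scrublet called only 2 and 1 doublets, which is too few to have worked, so no doublets were removed and the 3.5% highest scores of each library were left out as an alternative. Pcna, Tyms, Stmn1, H2afz and Hmgn2 have processed pseudogenes, and their counts are uncertain to that extent. Gene positions are from GENCODE vM21 (GRCm38) and promoters from RefSeq.

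All 38 members are named. Other cell cycle genes are named where they had the 3 highest or 3 lowest ratios of their lists, or were G1 cyclins, CDKs or CDK inhibitors, and genes like the mitosis set by the ratio given. Prc1 was named after its values were seen. The members and lists were chosen with earlier results of these data known. The code was tested on simulated counts. Python 3.11.15 with scipy 1.17.1 and scanpy 1.11.5 was used.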

Additional observations from a re-analysis of the deposited data

How the results depend on the processing

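No paired analysis was possible because there was only 1 library in either group. A value is counted as moved once it fell outside the counting interval given for it in all cells, and a count of members once it changed by over 1.5 times. Of the values that answer a comparison, 53 stayed, 26 moved and 1 reversed, and of the single genes 228 stayed, 31 moved and 3 reversed. The cause of each change was not tested unless the alternative itself removed the cells concerned. The log2 ratio of the S-phase set was 0.12 with cells thinned to 1000 or 2000 UMIs, 0.075 as a mean of per-cell CPM, 0.12 within the activation groups and 0.086 without the 92 cells rich in either set. That of the mitosis set was 0.56 at both depths (with an interval that held 0 at 1000 UMIs), 0.58 as a mean of per-cell CPM, 0.45 with all 18 genes, 0.28 without the 24 mitosis-rich cells, 0.31 without the 92 cells and 1.19 without the highest control cell. Without cells over 10% mitochondrial UMIs, 4 members were past 1.5-fold higher, Tk1 being under it at 0.48. Without the 92 cells, 3 members were past 1.5-fold higher and 2 lower, and 2 were lower with at least 20 UMIs and 3 with no minimum. The ratio of shares for the S-phase set reversed to 0.953 at 1000 UMIs, and was 1.10 within the activation groups, 1.10 at 2 or more UMIs, 1.495 at 5 or more and 1.014 at 10 or more. That of the mitosis set was 1.72 with all 18 genes and had no value at 1000 UMIs, where no cell passed. Between tdTomato classes, 4 or more UMIs against 0 gave 0.44 for the S-phase set and 2.01 for the mitosis set in control, thinning to 2000 UMIs gave 0.48 and 0.89 for the mitosis set in control and rescued cells, and all 18 genes gave 0.55 in rescued cells. At 1000 UMIs Mcm7 (0.015) and Ccne1 (0.28) reversed, and without the 92 cells Ccnb2 (-0.25) did. Leaving out high doublet scores or cells over 10% mitochondrial UMIs, and scaling without mitochondrial UMIs, moved no set value or share. The removals of cells by mitosis or S-phase UMIs and the limit of 10 UMIs were added after seeing the data. Cells removed in this way were chosen by UMIs of the sets, so the changes that follow are in part built in. Depth limits the mitosis shares, which rest on 4 control cells.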
